A study of Mus musculus with 10 samples.

Results

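Fat cells store energy as triglyceride and release it through a chain of lipases and their cofactors, and 10 genes of this chain, chosen by name, were followed here among 19659 genes measured. They are Pnpla2, Lipe, Mgll and Abhd6, which encode acylglycerol hydrolases, the ATGL paralog Pnpla3, the cofactors Abhd5 and G0s2, the carboxylesterases Ces1d and Ces1f, and the lysosomal lipase Lipa. All 10 had a value in every sample, and each was read by 1 probe set naming that gene alone, so no choice between probe sets was needed. The tissue was inguinal-femoral subcutaneous white fat of 10 untreated, chow-fed female F2 mice aged 14 weeks, each hybridised to its own one-colour array. Of these, 5 were homozygous for the Fat-line allele at the obesity locus Fob3a (FF) and 5 for the allele of the V line (VV). The V line descends from 1 recombinant founder that was backcrossed repeatedly to the Fat line, so both groups carry a largely Fat-line genome and differ over a congenic segment, not over a single gene. The comparison, FF against VV, asks how the locus relates to expression in fat.

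In the adipocyte, ATGL (Pnpla2) removes the first fatty acid from triglyceride, hormone-sensitive lipase (Lipe) acts mainly on the resulting diglyceride, and monoglyceride lipase (Mgll) or ABHD6 releases the last. ABHD5, also called CGI-58, activates ATGL once perilipin lets it go from the droplet surface, and G0S2 binds and inhibits ATGL. Carboxylesterases hydrolyse neutral lipids in the endoplasmic reticulum and are best known from liver, while the product of Lipa digests lipid delivered to lysosomes and is prominent in macrophages.

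The windows before the RefSeq start sites are shown for 5 members: Abhd6 had the smallest p of the 10, Abhd5 and Lipe were the members whose FF and VV mice did not overlap, Pnpla2 encodes the first enzyme, and the window of Pnpla3 holds a cyclic AMP response element. Each is written 5′ to 3′ on the gene's strand, on assembly GRCm38.p6, with matches to CACGTG (the core of an E-box), TGACGTCA (a cyclic AMP response element) or GGGCGG (a GC box), on either strand, in capitals.
Abhd6, chr14:8002638-8002887, plus strand: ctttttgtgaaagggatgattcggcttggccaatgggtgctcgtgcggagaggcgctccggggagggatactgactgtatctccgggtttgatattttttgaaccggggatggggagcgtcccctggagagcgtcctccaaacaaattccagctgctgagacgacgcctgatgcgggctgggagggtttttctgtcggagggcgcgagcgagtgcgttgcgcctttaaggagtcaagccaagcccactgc
Abhd5, chr9:122351366-122351615, plus strand: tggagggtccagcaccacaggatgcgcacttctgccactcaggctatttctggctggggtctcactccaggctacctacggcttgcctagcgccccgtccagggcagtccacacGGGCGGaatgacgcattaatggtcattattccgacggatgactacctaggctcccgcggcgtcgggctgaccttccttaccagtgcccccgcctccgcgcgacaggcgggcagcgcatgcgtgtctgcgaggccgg
Lipe, chr7:25395988-25396237, minus strand: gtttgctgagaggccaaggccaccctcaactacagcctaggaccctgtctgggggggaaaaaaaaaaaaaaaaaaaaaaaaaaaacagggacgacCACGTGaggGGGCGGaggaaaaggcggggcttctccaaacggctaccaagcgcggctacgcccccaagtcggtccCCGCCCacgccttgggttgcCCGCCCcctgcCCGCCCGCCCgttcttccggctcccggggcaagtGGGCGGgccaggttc
Pnpla2, chr7:141454938-141455187, plus strand: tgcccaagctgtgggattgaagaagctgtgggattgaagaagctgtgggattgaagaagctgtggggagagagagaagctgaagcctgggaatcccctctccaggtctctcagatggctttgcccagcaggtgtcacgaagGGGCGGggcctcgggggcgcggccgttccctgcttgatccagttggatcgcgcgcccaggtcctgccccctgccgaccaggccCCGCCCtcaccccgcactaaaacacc
Pnpla3, chr15:84167566-84167780, plus strand: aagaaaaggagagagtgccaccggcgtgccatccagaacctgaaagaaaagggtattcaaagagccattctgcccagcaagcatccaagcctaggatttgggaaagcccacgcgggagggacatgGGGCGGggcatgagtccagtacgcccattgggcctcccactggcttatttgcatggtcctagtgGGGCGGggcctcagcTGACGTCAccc
Of the 10 members, 8 had windows in the RefSeq table, 11 windows in all. In the 250 bases before a start, CACGTG occurred in 2 of these windows, the first of Lipe and the first of Mgll, against 6.97% of the 18862 windows of all genes tested. TGACGTCA was present in 1 of the 11, that of Pnpla3, against 2.03% of all windows. GGGCGG was found in 7 of the 11 against 45.4%, CCAAT in 3 against 34.6% and TATAAA in 1 against 10.6%. The direct repeat read by PPAR receptors, searched as 2 AGGTCA sites 1 base apart, was in none of the 11 and in 0.0318% of all windows. The Abhd6 window printed above held none of the 3 motifs in capitals, and the gene's other window, which overlaps it, held 1 GC box. The Lipe window printed lies inside the gene's RefSeq span, since a longer model starts further upstream, and that of Pnpla3 is shortened to where another model starts. The other window of Lipe, not printed, held none of the searched motifs, and which start is used in fat was not examined. Both strands were searched, and no searched motif contains another. These matches describe the letters of the reference strain only.

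The libraries need a word before the values. Deposited log2 intensities ran from 3.56 to 14.2, and the number of arrays limits the precision. Array medians over all valued probe sets lay between 7.15 and 7.17 in FF and between 7.18 and 7.21 in VV, so every FF median was below every VV median. With arrays centred on their medians over the 19659 genes tested, the FF minus VV difference of Lipe moved from 0.12 to 0.14 and that of Pnpla2 from 0.13 to 0.15. Fat markers were strong in every mouse: Adipoq lay between 13.25 and 13.44 and Plin1 between 12.97 and 13.11. VV replicate 1 stood apart in liver genes, with Alb at 13.91 against at most 12.56 elsewhere and Apoa1 at 12.61 against at most 9.48. FF replicate 1 held the most skeletal muscle RNA, with Ckm at 9.91. Among markers of thermogenic and immune cells, Ucp1, the uncoupling protein of brown and beige fat, rose by 3.96 log2 units in FF (limma adjusted p = 0.00553), while the macrophage genes Adgre1 and Cd68 did not pass, with differences of -0.53 and -0.41 (limma adjusted p = 0.105 and 0.159).

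No lipase or cofactor gene of the 10 was past the limma threshold, an adjusted p of 0.05, which 0.753% of all genes met (148 of 19659; 7 to 379 without single mice). The differences were small: they ran from -0.30 to 0.35 log2 units, with a median of 0.18 against 0.00081 for all genes. Of the 10, 8 had a positive difference (50.3% of all genes did), the exceptions being Mgll and Lipa. At an unadjusted limma p under 0.05, 6 members lay higher and 1 lower in FF, against 10.2% and 6.18% of all genes (16.4% in both directions). The FF and VV mice did not overlap for 2 members, Lipe and Abhd5, both higher in FF. Among all genes 4.7% did not overlap, 3.36% higher and 1.34% lower in FF. At an adjusted p under 0.10, 1 member (Abhd6) passed, against 3.58% of all genes. In whole fat, fewer cells of a type and less RNA per cell cannot be told apart.

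**Figure D1:**
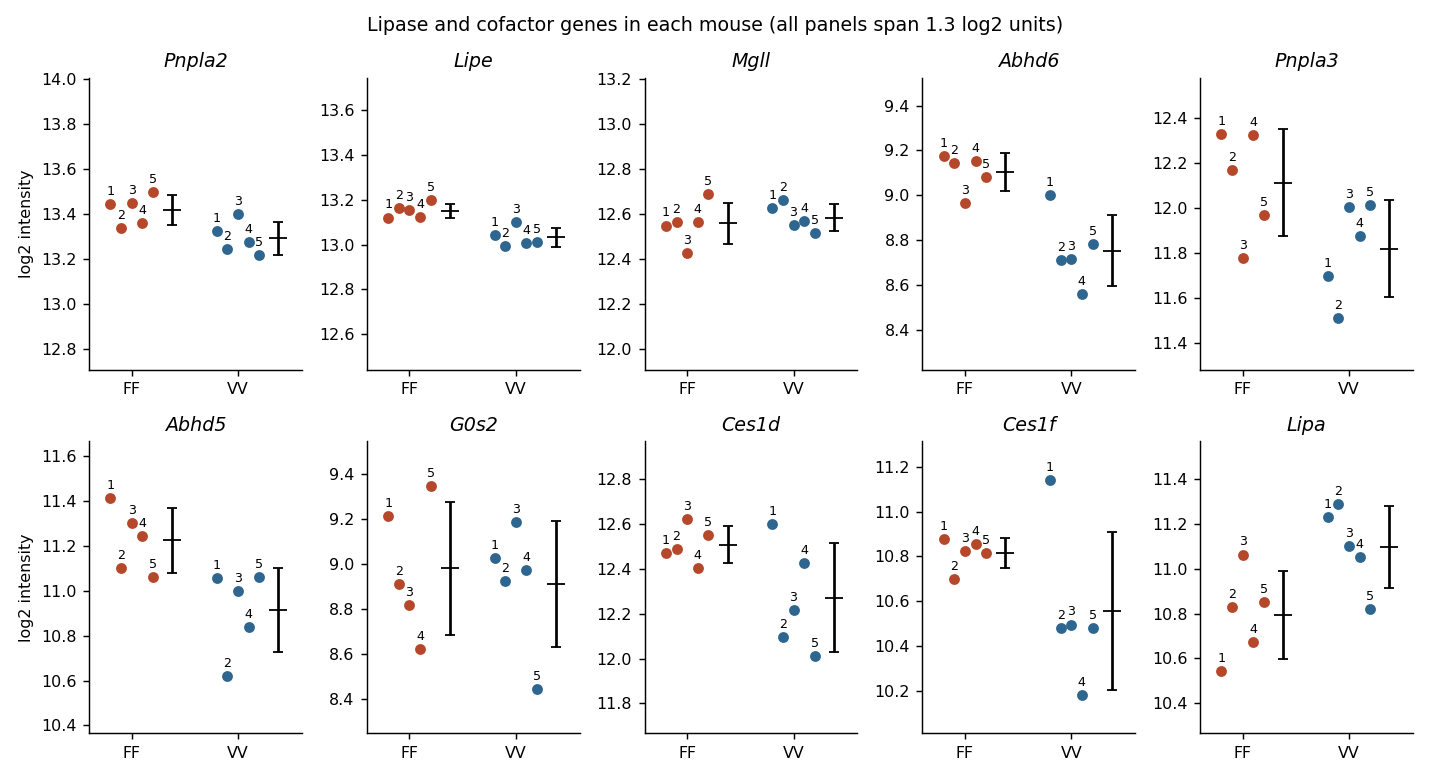
Log2 intensity of the 10 genes in each of the 10 mice, FF in red and VV in blue, with replicate numbers beside the points; black bars are the mean ± SD of 5 mice. All panels span the same height. Lipe and Abhd5 are the genes whose 2 groups do not overlap, and Ces1f in VV replicate 1, at 11.14, lies above every other mouse.

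Among the acylglycerol hydrolases, Pnpla2 and Lipe were each 1.09-fold higher on average in FF and Mgll was near parity, and none of the 3 passed the threshold. Pnpla2 was 13.44, 13.34, 13.45, 13.36 and 13.50 in FF replicates 1 to 5 and 13.32, 13.25, 13.40, 13.27 and 13.22 in VV replicates 1 to 5. The groups overlapped through VV replicate 3, and 3 FF mice lay above the highest VV mouse. The mean of FF was 13.42 ± 0.07 and that of VV 13.29 ± 0.07 (SD, n = 5 each), a 1.09-fold ratio with a 95% interval from 1.01 to 1.18 (difference 0.13 ± 0.05 SE, limma adjusted p = 0.234). A two-sided exact permutation of the mice gave p = 0.0317, not adjusted for the other genes.

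Lipe was the steadiest of the 10, spanning 0.20 log2 units over all mice. It was 13.12, 13.16, 13.15, 13.12 and 13.20 in FF and 13.04, 13.00, 13.10, 13.01 and 13.01 in VV, in replicate order. Every FF mouse lay above every VV mouse, though the lowest FF and highest VV mouse were 13.12 and 13.10. The difference was 0.12 ± 0.04 SE, a 1.09-fold ratio with an interval from 1.02 to 1.15 (limma adjusted p = 0.152). The exact permutation p was 0.00794, the smallest that 5 mice against 5 allow. Both enzymes lay near the upper end of the scale, whose highest value was 14.2.

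Mgll showed no separation of the genotypes. It was 12.55, 12.57, 12.43, 12.57 and 12.69 in FF and 12.63, 12.66, 12.55, 12.57 and 12.52 in VV. The difference was -0.03 ± 0.05 SE with a fold interval from 0.906 to 1.07 (limma adjusted p = 0.860), and its sign turned to 0.0077 without FF replicate 3.

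Abhd6, the alternative monoglyceride lipase, had the largest difference of the 10 genes. It was 9.18, 9.15, 8.97, 9.15 and 9.08 in FF and 9.00, 8.71, 8.72, 8.56 and 8.78 in VV. Only FF replicate 3 and VV replicate 1 crossed, and 4 of 5 FF mice lay above the highest VV mouse. The means of 9.10 ± 0.08 and 8.75 ± 0.16 (SD, n = 5 each) differed by 0.35 ± 0.08 SE, a 1.27-fold ratio with an interval from 1.13 to 1.43. Its limma adjusted p was 0.0625. The exact permutation p was 0.0159. Leaving out FF replicate 3 brought the limma adjusted p to 0.0419 and leaving out VV replicate 1 to 0.0260, where 1.93% and 0.829% of all genes passed. Without any other single mouse it lay between 0.0996 and 0.144. It also passed with arrays centred on their medians (0.0395, 1.72% of all genes), among genes at or above the median intensity (0.0384, 3.61% of 9830 genes) and with array weights (0.0335, 1.95%). It did not pass without both FF replicate 1 and VV replicate 1 (0.0616), after quantile normalisation (0.0751), with the mean of probe sets (0.0622), above the 25th percentile of intensity (0.0520), with an intensity trend and robust fit (0.0585) or with the replicate number as a block (0.168, where 0.0254% of all genes passed). The level of 11 markers of thermogenic fat (the mean of their values after centring each gene) ran from 0.27 to 1.28 in FF and from -1.27 to -0.38 in VV. In replicate order it was 0.28, 0.91, 0.27, 1.28 and 0.82 in FF and -0.38, -0.48, -0.57, -1.27 and -0.86 in VV. FF replicate 3 was lowest in FF and VV replicate 1 highest in VV for both measures, whereas FF replicate 1, highest in Abhd6, was close to the lowest FF marker level. The part of these markers in the difference of Abhd6 was not tested.

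Pnpla3, which is close in sequence to ATGL and responds to feeding, varied widely within both groups. It was 12.33, 12.17, 11.78, 12.33 and 11.97 in FF and 11.70, 11.51, 12.01, 11.87 and 12.01 in VV. FF replicates 1, 2 and 4 lay above all VV mice, while FF replicates 3 and 5 lay among them. The difference was 0.29 ± 0.13 SE, with a fold of 1.23 and an interval from 1.01 to 1.49 (limma adjusted p = 0.279; exact permutation p = 0.0794).

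Of the cofactors of ATGL, the activator lay higher in every FF mouse than in any VV mouse and the inhibitor did not separate the genotypes; neither passed the threshold. The activator Abhd5 was 11.41, 11.10, 11.30, 11.24 and 11.06 in FF and 11.06, 10.62, 11.00, 10.84 and 11.06 in VV. All FF mice lay above all VV mice, by a margin that vanishes at 2 decimals between FF replicate 5 and VV replicates 1 and 5 (lowest FF 11.062, highest VV 11.059). Its means of 11.22 ± 0.14 and 10.91 ± 0.19 (SD, n = 5 each) differed by 0.31 ± 0.10 SE, a fold of 1.24 with an interval from 1.07 to 1.44 (limma adjusted p = 0.139; exact permutation p = 0.00794). The inhibitor G0s2 was 9.21, 8.91, 8.82, 8.62 and 9.35 in FF and 9.03, 8.92, 9.19, 8.97 and 8.44 in VV. These ranges lay almost on top of each other, and the difference of 0.07 ± 0.16 SE (fold interval 0.824 to 1.34, limma adjusted p = 0.872) turned negative without FF replicate 5 (-0.02) or VV replicate 5 (-0.05).

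The balance of enzyme or activator to inhibitor was taken in each mouse as a difference of log2 values. For Pnpla2 minus G0s2, FF exceeded VV by 0.06 with a 95% interval from -0.29 to 0.40 (exact permutation p = 0.754). For Abhd5 minus G0s2, FF exceeded VV by 0.24 with an interval from -0.28 to 0.76 (exact permutation p = 0.286). With Ces1f minus Ces1d these were 3 balances, and the permutation p adjusted over the 3 was 0.960, 0.857 and 0.960 in that order. G0s2 had a wide spread between mice, with an SD of 0.30 in FF and 0.28 in VV, against 0.07 in both groups for Pnpla2 and 0.14 and 0.19 for Abhd5.

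**Figure D2:**
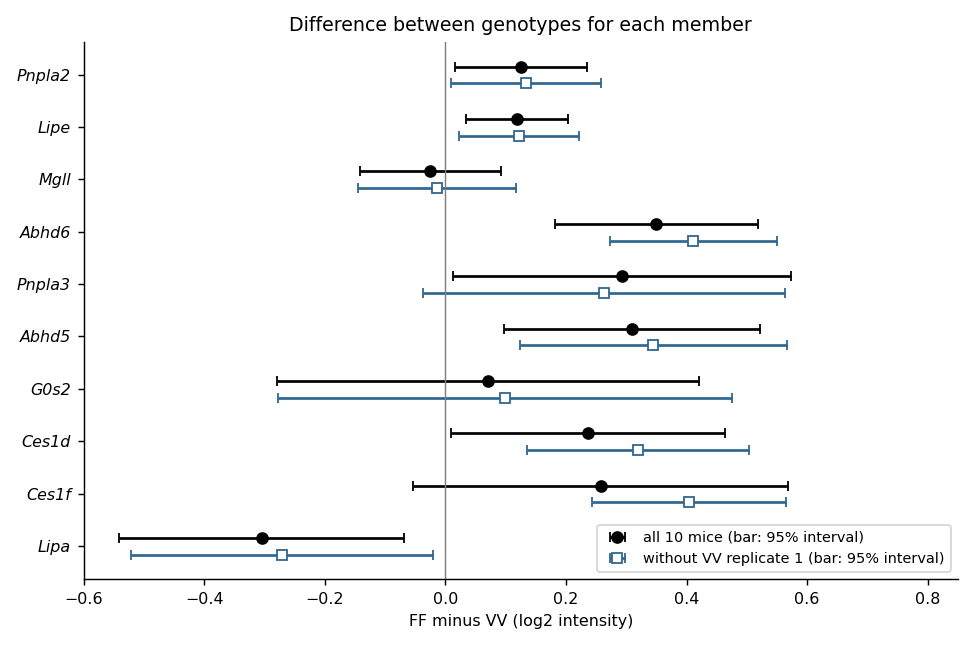
FF minus VV in log2 units for the 10 genes, with 95% intervals from the limma fits, over all 10 mice (black) and without VV replicate 1 (blue, open). Ces1f moves from 0.26 to 0.40 and its interval narrows when VV replicate 1 is left out, while Lipa lies below 0 and Mgll and G0s2 straddle it in both.

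The carboxylesterases Ces1d and Ces1f, both also abundant in liver, were the members whose values depended most on VV replicate 1, and neither passed the threshold over all mice. Ces1f was 10.88, 10.70, 10.83, 10.85 and 10.82 in FF and 11.14, 10.48, 10.50, 10.18 and 10.48 in VV. The mouse with the most liver RNA was the highest of all 10, and the other 4 VV mice lay below every FF mouse. Over all mice the difference was 0.26 ± 0.14 SE, a fold of 1.20 with an interval from 0.964 to 1.48 (limma adjusted p = 0.407). Without VV replicate 1 the VV mean was 10.41 ± 0.15 (SD, n = 4), and the difference of 0.40 ± 0.07 SE, 1.32-fold with an interval from 1.18 to 1.48, passed the threshold (limma adjusted p = 0.0428; 0.829% of all genes passed). Without both that mouse and FF replicate 1, the difference was 0.39 and the adjusted p was 0.0918.

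Ces1d, the main triglyceride hydrolase among the carboxylesterases, was 12.47, 12.49, 12.62, 12.41 and 12.55 in FF and 12.60, 12.09, 12.22, 12.43 and 12.01 in VV. VV replicates 1 and 4 lay within the FF range and the other 3 below it. The difference was 0.24 ± 0.10 SE (fold 1.18, interval 1.01 to 1.38, limma adjusted p = 0.281) over all mice and 0.32 ± 0.08 SE (adjusted p = 0.0897) without VV replicate 1. Ces1f minus Ces1d differed between the genotypes by 0.02, with an interval from -0.32 to 0.36.

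Of 14 other carboxylesterase genes measured, 8 were highest in VV replicate 1, and 7 lay there over 1 log2 unit above the highest of the other 9 mice. Singled out after their values were seen, Ces1c stood at 11.57 in VV replicate 1 against 5.40 to 6.82 elsewhere, Ces3a at 10.49 against 5.87 to 6.67, and Ces3b at 9.25 against 5.25 to 5.73. By contrast, Ces1f stood 0.26 above the highest other mouse and Ces1d 0.02 below it. In the other 9 mice Ces1f lay between 10.18 and 10.88 and Ces1d between 12.01 and 12.62. Liver RNA varied among those mice too, with a marker level of 0.41 in VV replicate 2 and of -0.70 to -0.31 in the remaining 8. The carboxylesterase genes are close copies of one another, and how far their probe sets read each other was not analysed here.

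**Figure D3:**
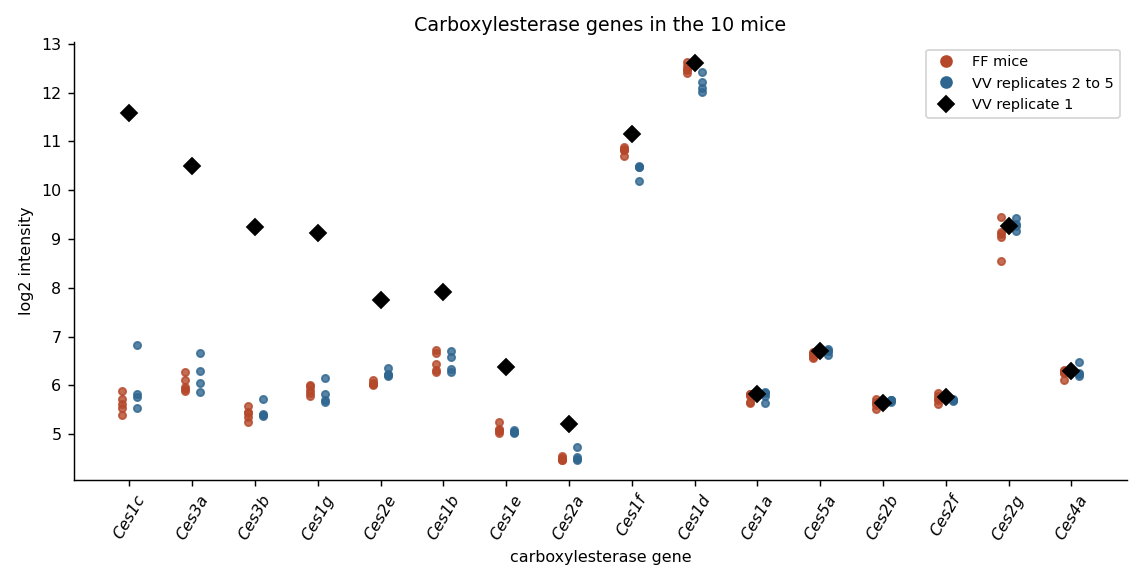
Log2 intensity of 16 carboxylesterase genes in the 10 mice, FF in red, VV replicates 2 to 5 in blue and VV replicate 1 as black diamonds, ordered by how far that mouse lies above the highest other mouse. Ces1c, Ces3a, Ces3b and Ces1g stand 2.99 to 4.75 log2 units higher there, whereas Ces1f stands 0.26 higher and Ces1d lies within the range of the others.

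Lipa, the acid lipase of lysosomes, was the 1 member whose 95% interval lay wholly below 0, though it did not pass the threshold. It was 10.55, 10.83, 11.06, 10.67 and 10.85 in FF and 11.23, 11.29, 11.10, 11.05 and 10.82 in VV. FF replicate 3 and VV replicate 5 bridged the groups, and 2 FF mice lay below the lowest VV mouse. The difference was -0.30 ± 0.11 SE, a fold of 0.810 with an interval from 0.687 to 0.954 (limma adjusted p = 0.184; exact permutation p = 0.0556). Macrophage markers lay lower in the same group: all 13 had a negative difference, 9 of them at an unadjusted limma p under 0.05 and none past the adjusted threshold. Of all genes, 50.3% had a positive difference and 6.18% lay lower at that unadjusted p. The mean centred level of the macrophage markers ran from -0.30 to -0.04 in FF and from -0.02 to 0.41 in VV. FF replicate 1 had the lowest and VV replicate 2 the highest value of both Lipa and the macrophage level, and FF replicate 3 had the highest of both within FF. The part of macrophages in the difference of Lipa was not tested. Without VV replicate 1 the difference was -0.27 (adjusted p = 0.263).

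**Figure D4:**
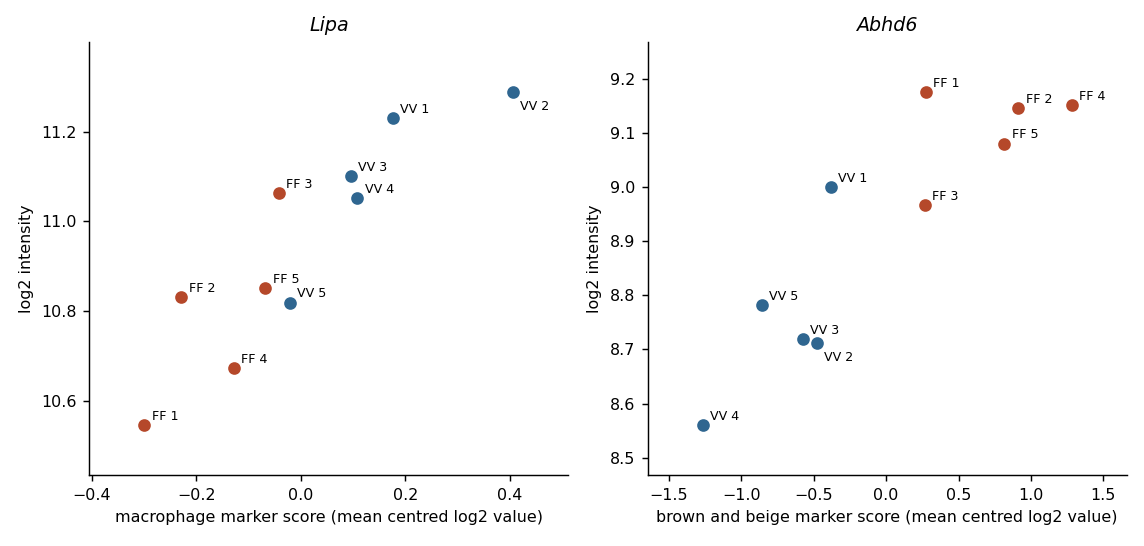
Log2 intensity of Lipa against the mean centred log2 level of 13 macrophage markers (left) and of Abhd6 against that of 11 brown and beige fat markers (right), 1 point for each mouse, FF in red and VV in blue. FF replicate 1 and VV replicate 2 mark the ends in the left panel, and FF replicate 3 and VV replicate 1 lie next to each other in the right panel.

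The other genes of the pathway were read from lists, given by counts and medians beside those of all genes (0.621% called higher, 0.132% called lower, median 0.00081). Of 43 other lipases and esterases, 1 passed the threshold: Ddhd2, a phospholipase and triglyceride hydrolase, rose by 0.34 ± 0.06 SE in FF (limma adjusted p = 0.0352). It missed the threshold when FF replicate 1, 2, 4 or 5 or VV replicate 2, 4 or 5 was left out (adjusted p = 0.0563 to 0.0951). Dagla, a diglyceride lipase that makes endocannabinoid, differed by 0.38 (adjusted p = 0.0711) and Abhd2 by -0.20 (adjusted p = 0.127). The list median was -0.04, and -0.02 without VV replicate 1. Of the 43, 4 lay higher and 3 lower at an unadjusted limma p under 0.05 (10.2% and 6.18% of all genes). Lpl, the lipoprotein lipase that brings fatty acids into fat, had a mean of 13.50 ± 0.04 in FF against 13.55 ± 0.05 in VV (SD, n = 5 each), a difference of -0.04 (limma adjusted p = 0.636); it was picked as the best known of the list after its value was seen.

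Among 19 genes of the droplet coat and of product handling, Cidea alone passed. Cidea, which fuses droplets in thermogenic fat, rose by 2.96 ± 0.41 SE (limma adjusted p = 0.0219; 0.0708 without FF replicate 2, 0.0507 without FF replicate 5 and 0.0630 without VV replicate 5). Plin5, a perilipin that ties droplets to mitochondria, differed by 0.54 (adjusted p = 0.0897) and Fitm2, which takes part in droplet budding, by 0.21 (adjusted p = 0.0902). The list median was 0.04. Of the 19, 4 lay higher and 0 lower at an unadjusted limma p under 0.05 (10.2% and 6.18% of all genes).

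None of 30 genes of lipolytic signalling passed, with a median of 0.05 (0.03 without VV replicate 1). Pde4b, a phosphodiesterase that degrades cyclic AMP, differed by -0.35 (limma adjusted p = 0.0591), Npr3, the clearance receptor of natriuretic peptides, by -0.19 (adjusted p = 0.0910), and Adcy3, an adenylyl cyclase, by 0.22 (adjusted p = 0.191). At an unadjusted limma p under 0.05, 4 of the 30 lay higher and 3 lower, near the shares of all genes (10.2% and 6.18%).

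Of 19 regulators of lipase transcription, 2 passed. Ppargc1a, a coactivator of mitochondrial genes, rose by 0.99 ± 0.14 SE (limma adjusted p = 0.0219) and Mlxipl, the carbohydrate-responsive factor ChREBP, by 0.90 ± 0.13 SE (adjusted p = 0.0245). Ppargc1a missed the threshold when FF replicate 5 or VV replicate 2 or 5 was left out (adjusted p = 0.0507 to 0.0718), and Mlxipl when FF replicate 2 or VV replicate 2, 4 or 5 was (0.0630 to 0.0806). Srebf1 differed by 0.60 (adjusted p = 0.0692), and the list median was 0.11. Of the 19 regulators, 7 lay higher and 0 lower at an unadjusted limma p under 0.05 (10.2% and 6.18% of all genes). None of 24 lysosomal genes passed, with a median of -0.07. At the same unadjusted p, 0 of the 24 lay higher and 6 lower. Ctss and Ctsl, both cathepsins, differed by -0.76 and -0.21 (adjusted p = 0.0621 and 0.0788), and Atp6v0d2, a proton pump subunit of macrophages and osteoclasts, by -1.31 (adjusted p = 0.156).

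**Figure D5:**
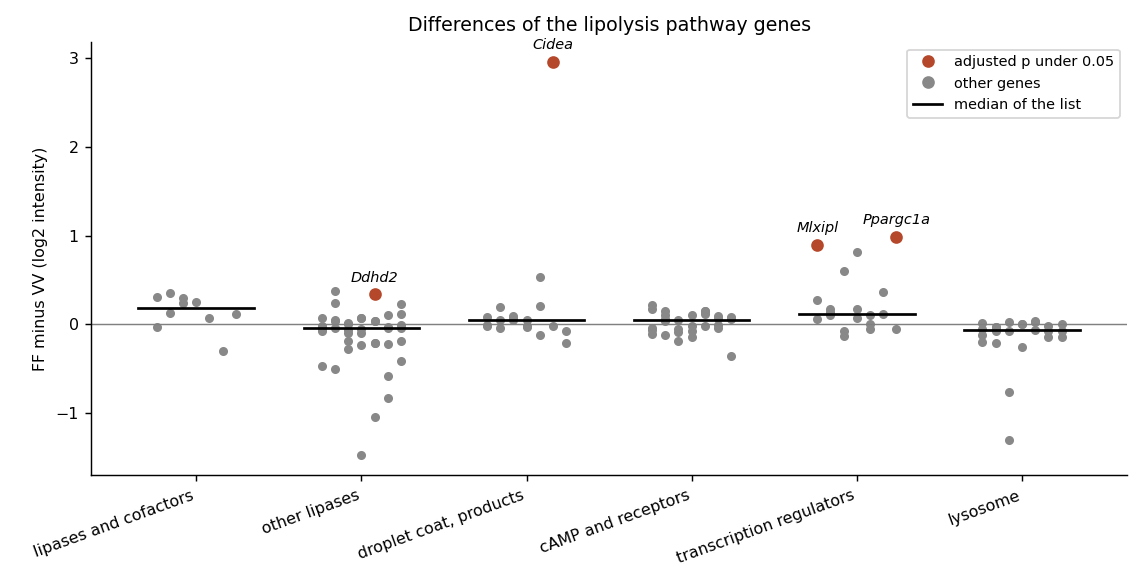
FF minus VV in log2 units for each gene of the 10 lipases and cofactors and of 5 pathway lists, with the list median as a black line and genes past an adjusted p of 0.05 in red. Ddhd2, Cidea, Ppargc1a and Mlxipl are the red points, and none of the 10 lipases and cofactors is among them.

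Marker lists of other cells stood as follows. Of 11 measured brown and beige genes, 5 rose (Ucp1, Cidea, Ppargc1a, Cox7a1 and Cox8b) and none fell, with a median difference of 1.32. Cidea and Ppargc1a stand in this list and in a pathway list above. Of 9 pan-leukocyte genes, 1 fell (Ptprc, by 0.68 log2 units, limma adjusted p = 0.0422, past the threshold in 3 of 10 fits that left out 1 mouse), and their median was -0.51. Of all genes, 0.621% passed the threshold higher and 0.132% lower in FF. At an unadjusted limma p under 0.05, 9 of the 11 brown and beige genes lay higher and 0 lower (10.2% and 6.18% of all genes). For the 9 pan-leukocyte genes, 0 lay higher and 8 lower at that p. None passed among 10 mature adipocyte genes (median 0.06), 13 macrophage genes (-0.27), 19 liver genes (-1.05), 15 skeletal muscle genes (0.45), 11 mammary epithelial genes (-0.04), 10 endothelial genes (-0.02) or 9 progenitor genes (-0.23). At an unadjusted limma p under 0.05 these 7 lists held, in that order, 3, 0, 0, 1, 1, 0 and 1 genes higher and 1, 9, 0, 0, 0, 1 and 2 lower, where 10.2% of all genes lay higher and 6.18% lower. The mature adipocyte level ran from -0.00073 to 0.18 in FF and from -0.14 to 0.02 in VV. The liver level was 3.74 in VV replicate 1 and at most 0.41 in any other mouse. That of skeletal muscle was 1.76 in FF replicate 1 and at most 0.22 in any other mouse. Medians of these lists without those mice were not calculated.

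For each member, the 3 genes with the most similar pattern were found by Pearson r over the 10 mice after the mean of each genotype was taken off, as a description. They are the highest values over all genes tested with only 10 mice. Their size is raised by that selection and was not tested. The nearest to Pnpla2 were Rps21 (r = 0.94), Lamp1 (0.94) and Atp6v0e (0.94), and those to Lipe were Tmem216 (0.93), Rps21 (0.90) and Lat (0.89), so 1 gene, Rps21, was shared. Pnpla3 had Dao (0.97), Trhde (0.94) and Camk2b (0.93), and Mgll had Sae1 (0.98), Slc5a7 (0.94) and Egr2 (0.93). Abhd5 had Prss34 (0.93), Arrdc5 (0.91) and Olfml1 (0.91), Abhd6 had Gm11437 (0.96), Clstn2 (0.96) and Rmdn2 (0.95), and G0s2 had Zfp872 (0.93), Galns (0.92) and Mmp10 (0.90). Lipa was closest to Rab3gap2 (0.98), Snora33 (0.97) and Usp6nl (0.96), and Ces1d to Insig2 (0.96), Slc20a2 (0.93) and Sav1 (0.92). Without VV replicate 1 the values of Ces1d were 0.91, 0.84 and 0.82, and those of Abhd6 0.91, 0.92 and 0.88. Ces1f was closest to Ttpa (0.98), Mup3 (0.97) and Afmid (0.97), genes of liver function, and without VV replicate 1 these values were 0.90, 0.86 and 0.82. No gene of these 29 differed between the genotypes at an adjusted limma p under 0.05, the smallest being 0.161, and none of the 10 members was among them.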

How the data were processed

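Fat RNA of 10 mice, 5 FF and 5 VV, was measured on one-colour arrays. Per the submitters' processing notes, the authors used RMA; the deposited values are log2 intensities per probe set, already normalised between arrays, while its version, the chip and a genome build were not given in the sources used here. Of 35557 probe sets, 9868 had no value on any array and were left out. The 20777 valued probe sets naming 1 gene gave 19659 genes, by the highest mean where several named 1 gene; symbols followed RefSeq on GRCm38.p6, where 20699 probe sets matched.

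Both genotypes entered a two-sided limma 3.58.1 fit without covariates (lmFit and eBayes, R 4.3.3). P-values were adjusted by Benjamini-Hochberg across the 19659 genes and read against 0.05, and every difference is FF minus VV. Exact permutations used every assignment of 5 mice against 5. Named are all members, and in each pathway list the genes past the threshold, filled up to 3 by smallest p. The members and lists were chosen with earlier results of these data known. Labels give each array its own animal. On simulated data for this comparison with 19659 genes, 84 of 100 genes shifted by 0.5 log2 units and 96 of 100 shifted by 1 were recovered, with 9 of 189 calls false. Noise there was drawn independently for each gene, without the variation that genes share within a mouse. Both shifts exceed the largest member difference, 0.35, so recovery of differences as small as those of the members was not examined. Figures used matplotlib 3.10.9 in Python 3.11.15.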

Additional observations from a re-analysis of the deposited data

Results flagged for a closer look

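Mice far from the other 4 of their group were looked for with Dixon's criterion in 44 sets of 5 values, made of the 10 members, the 3 balances and the 9 marker levels in each genotype; chance alone marks about 1 set in 20, and 4 were marked. The balance Pnpla2 minus G0s2 was 4.77 in VV replicate 5, where G0s2 was at its lowest, 8.44. The liver marker level was 3.74 in VV replicate 1. The skeletal muscle level was 1.76 in FF replicate 1 and 0.22 in VV replicate 1. No single member was marked in either genotype.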

How the results depend on the processing

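The median difference of the 10 genes stayed between 0.14 and 0.20 in every alternative fit, and Pnpla2, Pnpla3, Lipe, Abhd5, Abhd6, Ces1d, Ces1f and Lipa kept their direction in all of them. The count of members past the threshold was 0 with all mice and 0 to 2 without single mice (1 without FF replicate 3 and 2 without VV replicate 1); it was 1 with arrays centred on their median, 1 among genes at or above the median intensity, 1 with array weights and 1 at an adjusted p of 0.10, each time Abhd6. Counts over all genes, 148 as reported, ran from 7 to 379 without single mice (17, 12, 379, 59 and 21 without FF replicates 1 to 5; 163, 7, 74, 18 and 17 without VV replicates 1 to 5). They were 28 without FF replicate 1 and VV replicate 1, 95 after quantile normalisation, 338 with centred arrays, 230 above the 25th percentile of intensity, 355 above its median, 383 with array weights and 704 at an adjusted p of 0.10. The 4 pathway calls ran from 0 to 7 without single mice (1 when FF replicate 2 or 5 or VV replicate 2 was left out, 7 for FF replicate 3, 2 for VV replicate 4 and 0 for VV replicate 5), and were 8 above the median intensity, 9 with array weights and 13 at an adjusted p of 0.10. Without single mice Mgll ran from -0.0575 to 0.0077 and G0s2 from -0.0468 to 0.16; the sign changed for Mgll when FF replicate 3 was left out (0.0077) and for G0s2 when FF replicate 5 (-0.02) or VV replicate 5 (-0.0468) was. The balances ran without single mice from -0.02 to 0.15 for Pnpla2 minus G0s2 and from -0.11 to 0.0841 for Ces1f minus Ces1d, with the sign changed for the first when FF replicate 4 was left out (-0.0204) and for the second when FF replicate 1 (-0.0041), FF replicate 4 (-0.0145) or VV replicate 4 (-0.11) was. Same-numbered mice did not deviate together (correlations from -0.26 to 0.10; 1 of 5 FF mice correlated best with its own number). With the replicate number as a block 5 genes passed, 0 of them members and 0 pathway genes. The cause of these changes was not tested.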
